A study of Mus musculus with 9 samples.

Results

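The 5 pairs described here each join a long noncoding RNA (lncRNA) and a protein-coding gene that lie on opposite strands of the same locus in the mouse genome: Gm15962 and Keg1, 1700023H06Rik and Arrdc3, Gm11695 and Slc16a5, A530083I20Rik and Zkscan7, and Gm10658 and Ptpn9. They were chosen by name, for how closely the levels of both partners were related over the libraries, inversely in Gm10658 and Ptpn9. The agreement within a pair is therefore a description and was not tested. The 10 genes stand among 26350 named gene entries with a known transcript, and the 5 lncRNAs have 10 of the 26083 transcripts in the lncRNA table. The files hold 3177 such opposite-strand pairs, of which 885 averaged 0.5 FPKM or more in both partners (FPKM is a fragment count corrected for transcript length and library size).

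Livers came from male C57BL/6 mice of 8 weeks of age, and the feeding lasted 5 weeks. The PF group was pair-fed an isocaloric control liquid diet, the AF group received the Lieber-DeCarli alcohol diet, and the AF+MNA group received the alcohol diet with daily intraperitoneal MNA at 50 mg/kg. Each group had 3 libraries, 9 in all. The strain labels of the AF+MNA libraries read C57BL/7, C57BL/8 and C57BL/9 in place of C57BL/6. All groups received a liquid diet, and the labels give no line, transgene or pooling of animals. RNA was depleted of ribosomal RNA and sequenced as strand-specific paired-end libraries. Whether the level estimates used the strand was not given in the sources used here. Without it, reads from the overlapping parts of both partners could not be told apart.

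An antisense transcript is made from the strand opposite to a coding gene. It may begin near the same promoter, run into the end of the coding gene or lie inside one of its introns. Some antisense lncRNAs act on the gene beside them, and many others are known only as transcripts that accompany it. The coding partners have unrelated roles. Keg1 belongs to the glycine N-acyltransferase family, whose liver enzymes join glycine to acyl groups. Arrdc3 is an alpha-arrestin, an adaptor that links membrane receptors such as the beta-adrenergic receptors to ubiquitin ligases. Slc16a5 belongs to the monocarboxylate transporter family. Zkscan7 is a zinc finger protein with KRAB and SCAN domains, and Ptpn9 is a cytoplasmic protein tyrosine phosphatase.

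The 5 pairs had 4 different arrangements. The coordinates match the GRCm38 build, and all coding partners lie on the plus strand and all 5 lncRNAs on the minus strand. Gm15962 (transcript ENSMUST00000124184, chr19:12715790-12721247, 4 exons, 750 bases) runs tail to tail into Keg1 (chr19:12695786-12719902), starting 1345 bases beyond its end. Gm10658 (ENSMUST00000135527, chr9:57057203-57071966, 2 exons, 957 bases) likewise enters Ptpn9 (chr9:56994923-57062807) from beyond its end. Gm11695 (ENSMUST00000144230, chr11:115462045-115463454, 3 exons, 407 bases) crosses the start of Slc16a5 (chr11:115462474-115474398). Its own start lies 980 bases inside the coding gene. A530083I20Rik (ENSMUST00000180486, chr9:122885080-122903184, 3 exons, 2421 bases) spans the whole of Zkscan7 (chr9:122885685-122898618), which lies mostly in an intron of the lncRNA. 1700023H06Rik (ENSMUST00000161006, chr13:80884224-80885524, 2 exons, 1044 bases) lies wholly inside intron 1 of Arrdc3 (chr13:80883384-80896042), an intron of 3476 bases in the coding transcript ENSMUST00000099356.

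**Figure D1:**
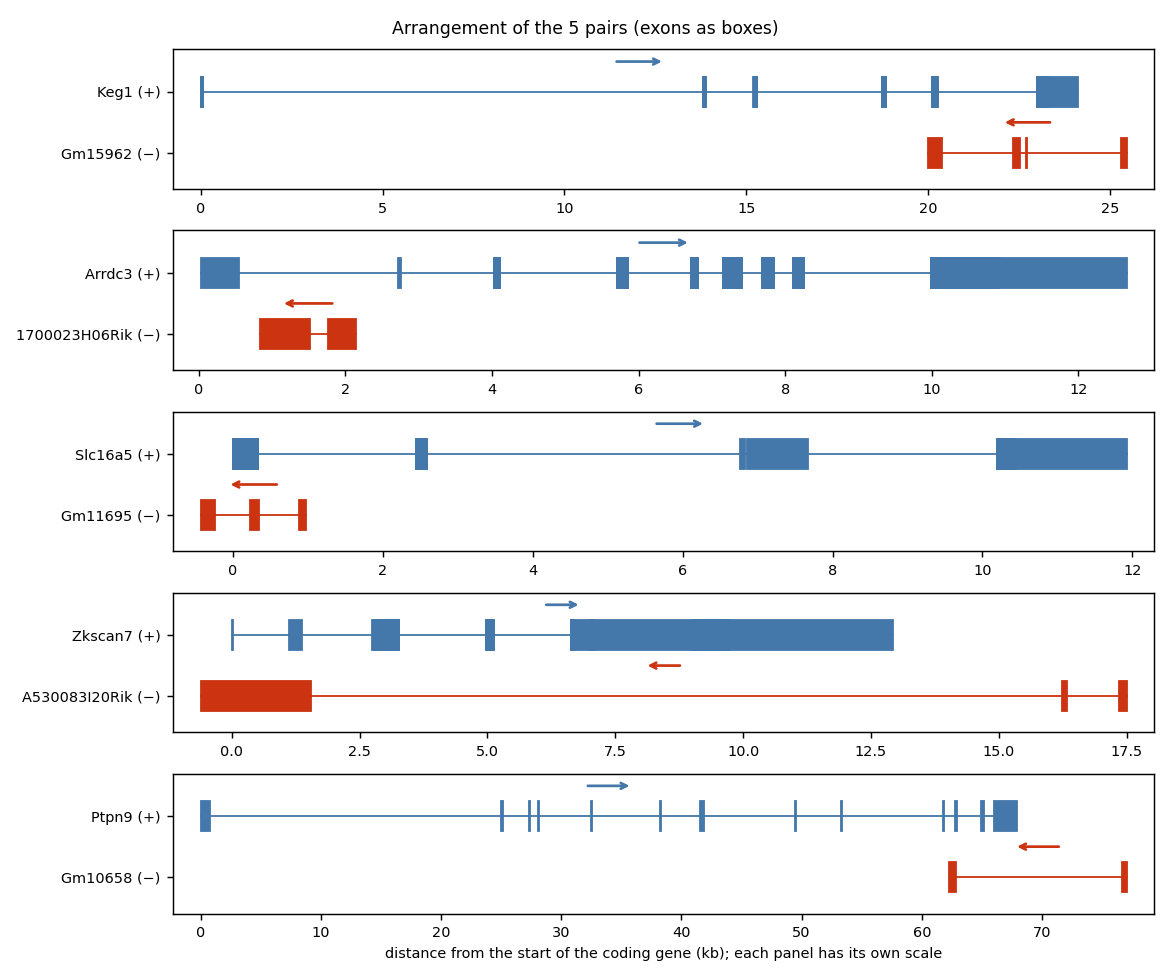
Arrangement of the 5 pairs, with the distance from the start of the coding gene in kb on the horizontal axis, the exons of the annotated coding transcripts as blue boxes, the exons of the lncRNA transcript as red boxes, and arrows for the direction of transcription. Gm15962 and Gm10658 overlap the end of their partner, Gm11695 overlaps the start, A530083I20Rik spans its partner and 1700023H06Rik lies in an intron.

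In 3 of the pairs, exons of the lncRNA were complementary to coding sequence of the partner, over 172 bases for Gm15962 and Keg1, 104 bases for Gm11695 and Slc16a5, and 91 bases for the main Gm10658 transcript and Ptpn9. These stretches are shown because there the lncRNA is complementary to the coding sequence of its partner. Exons of Gm15962 overlapped 491 exonic bases of Keg1 transcripts in all, the 172 coding bases among them. Each is written 5' to 3' along the lncRNA, from the GRCm38 genome with GENCODE M21 exons, with the bases complementary to the coding sequence in capitals and the 20 bases of the spliced lncRNA on each side. The coordinates are those of the capitals.
Gm15962, chr19:12715898-12716069: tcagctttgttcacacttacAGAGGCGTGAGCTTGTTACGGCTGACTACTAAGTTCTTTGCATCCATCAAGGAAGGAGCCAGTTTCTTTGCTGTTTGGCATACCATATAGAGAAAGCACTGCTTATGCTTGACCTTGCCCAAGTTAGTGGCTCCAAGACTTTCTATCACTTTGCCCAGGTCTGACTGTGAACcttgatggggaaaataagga
Gm11695, chr11:115462704-115462807: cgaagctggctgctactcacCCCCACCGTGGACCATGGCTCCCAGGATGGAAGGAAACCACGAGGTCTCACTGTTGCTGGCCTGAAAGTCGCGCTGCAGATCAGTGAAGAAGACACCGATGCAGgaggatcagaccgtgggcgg
Gm10658, chr9:57057711-57057801: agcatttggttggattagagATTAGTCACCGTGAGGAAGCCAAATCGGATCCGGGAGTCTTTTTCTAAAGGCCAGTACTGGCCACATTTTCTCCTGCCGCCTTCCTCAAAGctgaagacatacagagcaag
The second known Gm10658 transcript, ENSMUST00000128125 (3 exons, 1241 bases), was complementary to 170 coding bases of Ptpn9, the same 91 among them. Exons of A530083I20Rik overlapped 278 exonic bases of Zkscan7 and 0 coding bases.

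1700023H06Rik shared 0 exonic bases with the annotated Arrdc3 transcripts. Bases 150 to 430 of its 1044 are shown, since 5 of the 6 siRNA sequences that the study lists against it fall there, and their sites, 66 bases in all, stand in capitals.
1700023H06Rik, ENSMUST00000161006: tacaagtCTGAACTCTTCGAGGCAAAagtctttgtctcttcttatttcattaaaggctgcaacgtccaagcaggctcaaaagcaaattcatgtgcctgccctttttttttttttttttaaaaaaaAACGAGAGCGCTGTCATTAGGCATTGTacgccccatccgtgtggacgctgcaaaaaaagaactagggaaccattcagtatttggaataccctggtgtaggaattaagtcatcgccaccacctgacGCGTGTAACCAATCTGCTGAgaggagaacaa
All 6 sequences matched this transcript on the same strand and matched 0 Arrdc3 transcripts. They are listed with their positions counted from the first base of the transcript.
siRNA 1, bases 275 to 294: aacgagagcgctgtcattag
siRNA 2, bases 400 to 419: gcgtgtaaccaatctgctga
siRNA 3, bases 675 to 694: tcattgaatccacgttccaa
siRNA 4, bases 283 to 301: cgctgtcattaggcattgt
siRNA 5, bases 157 to 175: ctgaactcttcgaggcaaa
siRNA 6, bases 401 to 419: cgtgtaaccaatctgctga
Sequences 1 and 4 overlapped each other, as did 2 and 6, so the 6 sequences cover 4 separate places. No library of the present data was treated with them.

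Keg1 and Gm15962 were both lower in the alcohol-fed livers. Keg1 stood at 5.37, 4.83 and 3.22 FPKM in the PF libraries, at 1.60, 0.84 and 1.51 in AF, and at 0.99, 4.49 and 2.44 in AF+MNA. Gm15962 stood at 2.90, 3.29 and 3.35 FPKM in PF, at 1.52, 0.358 and 0.749 in AF, and at 0.649, 2.52 and 1.75 in AF+MNA. For both genes the lowest PF library was above the highest AF library, and the AF+MNA libraries ran from the AF range up towards the PF range. The first AF+MNA library was the low one and the second the high one for both partners.

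Arrdc3 and 1700023H06Rik had the highest lncRNA level of the positively related pairs. Arrdc3 stood at 17.68, 11.13 and 15.77 FPKM in PF, at 3.55, 1.59 and 9.34 in AF, and at 2.49, 8.10 and 7.05 in AF+MNA. 1700023H06Rik stood at 12.96, 8.91 and 12.53 FPKM in PF, at 1.71, 1.12 and 6.42 in AF, and at 2.79, 5.43 and 3.92 in AF+MNA. The third AF library was the highest of its group for both genes and still lay below every PF library.

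Slc16a5 and Gm11695 were higher under alcohol, the only pair in which both partners rose. Slc16a5 stood at 0.74, 1.83 and 2.82 FPKM in PF, at 7.40, 10.70 and 5.77 in AF, and at 8.29, 8.18 and 11.41 in AF+MNA. The Gm11695 transcript was listed at 0 in 2 PF libraries and at 0.119 FPKM in the third, at 1.43, 1.43 and 0.292 in AF, and at 0.616, 0.325 and 0.606 in AF+MNA. It was the least abundant lncRNA of the 5. Its gene entry, which also holds other assembled transcripts of the locus, was never at 0 and read 0.09, 0.16 and 0.78 FPKM in PF against 0.89, 1.17 and 2.26 in AF.

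Zkscan7 stood at 2.39, 8.31 and 2.54 FPKM in PF, at 1.51, 1.59 and 0.95 in AF, and at 1.00, 1.31 and 3.09 in AF+MNA. The main A530083I20Rik transcript stood at 2.75, 3.82 and 1.43 FPKM in PF, at 0.483, 0.806 and 0.422 in AF, and at 0.645, 0.657 and 1.52 in AF+MNA. Both partners were lower in every AF library than in every PF library, and both had their PF maximum in the second library. A second transcript, ENSMUST00000214426, was listed above 0 in that same library alone, at 0.375 FPKM, and ENSMUST00000216924 had a mean of 0.00796 FPKM.

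Ptpn9 and Gm10658 were inversely related. Ptpn9 stood at 2.36, 3.61 and 2.22 FPKM in PF, at 6.40, 5.37 and 3.20 in AF, and at 4.98, 4.55 and 4.18 in AF+MNA. The main Gm10658 transcript, ENSMUST00000135527, stood at 6.18, 6.35 and 4.86 FPKM in PF, at 2.06, 1.85 and 4.09 in AF, and at 4.32, 4.43 and 5.38 in AF+MNA. In the third AF library Ptpn9 was the lowest of its group and Gm10658 the highest. In PF both partners had the same order, with the second library highest and the third lowest, so the inverse relation was not seen inside PF. The second known transcript, ENSMUST00000128125, was listed at 0 in the first and second AF libraries and at 4.16 FPKM in the third, with 1.25 to 3.03 FPKM in PF. The lncRNA table also assigns to Gm10658 a pair of transcripts assembled inside its intron. MSTRG.44625.1 had a mean of 2.20 FPKM over the 9 libraries, and MSTRG.44624.1, on the plus strand, was above 0 in the third AF library alone.

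**Figure D2:**
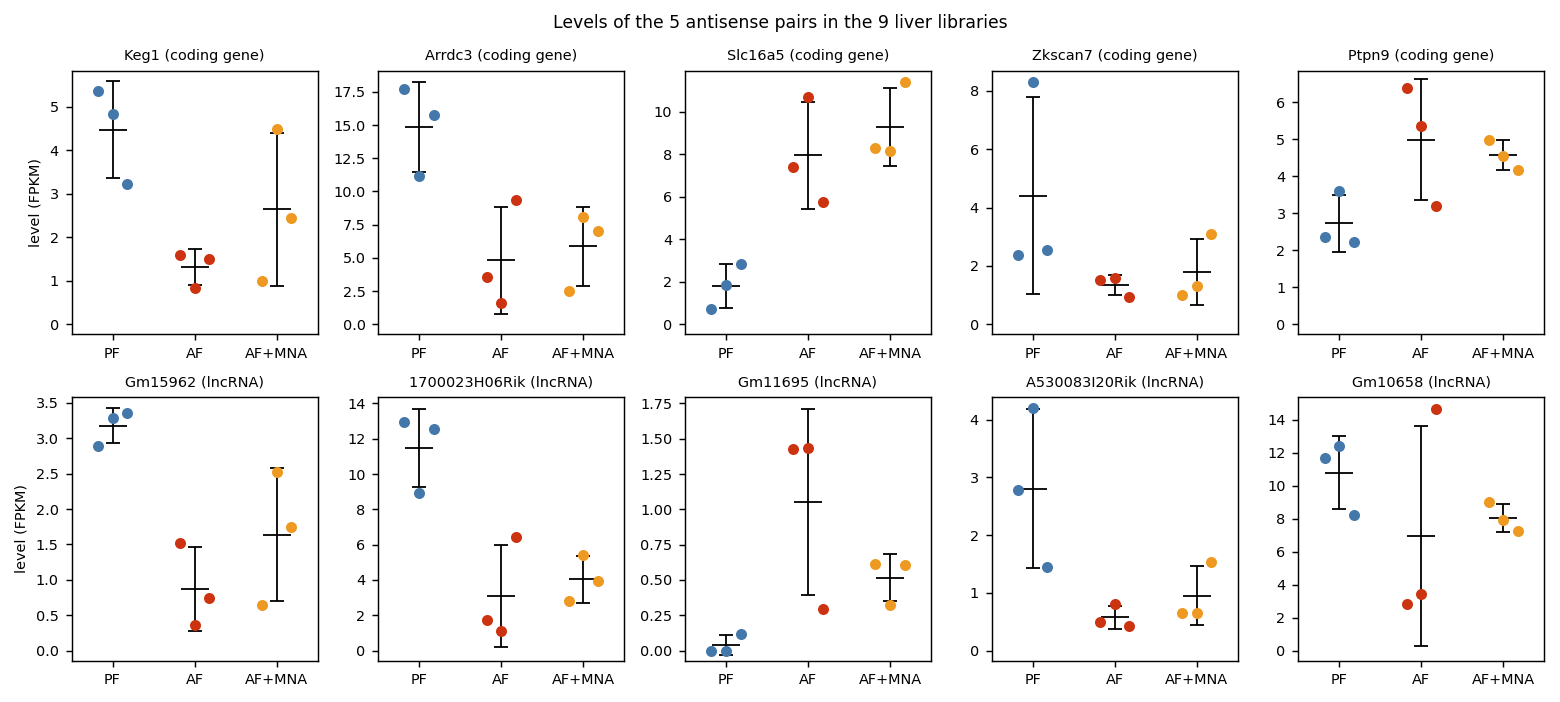
Levels in FPKM of the coding gene (top row) and of the lncRNA as the sum of its transcripts (bottom row) in the 3 groups, with 1 point per library and the mean and SD of each group (n = 3) in black. Keg1, Arrdc3, Zkscan7 and their lncRNAs are lower in AF than in PF, Slc16a5 and Gm11695 are higher, and in 2 of the 3 AF libraries Ptpn9 is above and Gm10658 below all PF libraries.

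Taking each lncRNA as the sum of its transcripts, levels within a pair were described by Pearson's r of log2(FPKM + 1) over the 9 libraries. The values share libraries, and where the spans overlap they may share reads. The r was 0.97 for 1700023H06Rik and Arrdc3, 0.93 for Gm15962 and Keg1, 0.91 for A530083I20Rik and Zkscan7, 0.78 for Gm11695 and Slc16a5, and -0.71 for Gm10658 and Ptpn9. Spearman's rho was 0.98, 0.88, 0.90, 0.83 and -0.68 in the same order. Leaving out the 2 libraries farthest from the median of the coding gene gave 0.99, 0.91, 0.84, 0.62 and -0.92. With the group means subtracted from both partners, the deviations had r of 0.93, 0.81, 0.85, 0.56 and -0.65. Gm11695 and Slc16a5 had the weakest relation inside the groups. The summed Gm10658 level ran opposite to Ptpn9 inside AF, and in the same order inside PF and AF+MNA. The main Gm10658 transcript alone ran opposite to Ptpn9 inside AF+MNA.

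**Figure D3:**
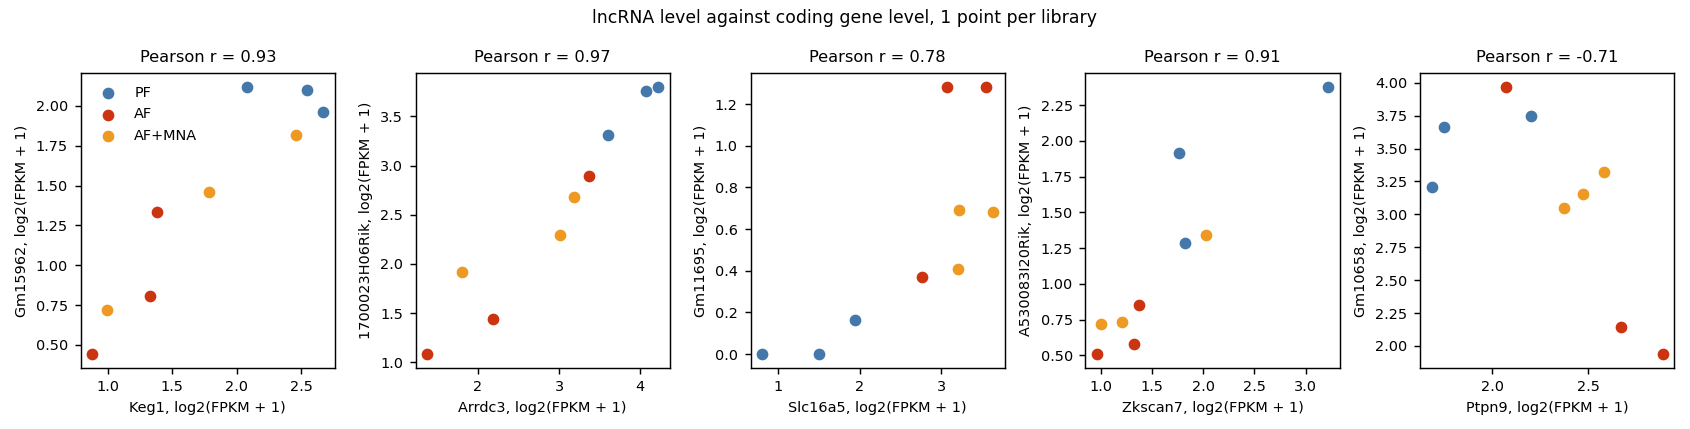
The lncRNA level (vertical axis, sum of transcripts) against the coding gene level (horizontal axis), both as log2(FPKM + 1), with 1 point per library coloured by group and Pearson's r over the 9 libraries above each panel. The points rise together in the first 4 panels and fall in the panel of Ptpn9 and Gm10658, where the highest point for Gm10658 is the third AF library.

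Over all 885 opposite-strand pairs, the median r was 0.28, with quartiles at -0.07 and 0.55, and 615 pairs (69.5%) had a positive r. Against these, 1700023H06Rik and Arrdc3 ranked 5 by r, Gm15962 and Keg1 15, A530083I20Rik and Zkscan7 18, and Gm11695 and Slc16a5 67. Gm10658 and Ptpn9 ranked 880 of 885. The pairs above 1700023H06Rik and Arrdc3 were Gm28592 and Phlda1, B430119L08Rik and Serpina1c, 4930534D22Rik and Cyp2u1, and Hnf4aos and R3hdml.

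**Figure D4:**
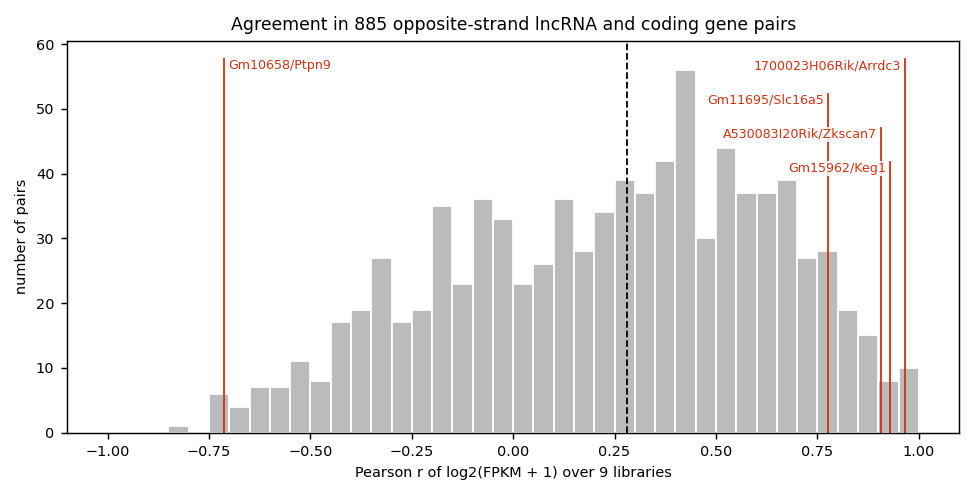
Number of opposite-strand pairs (vertical axis) by Pearson's r of log2(FPKM + 1) over the 9 libraries (horizontal axis, bins of 0.05), with the 5 pairs as red lines and the median of 0.28 of all 885 pairs as a dashed line. Gm10658 and Ptpn9 lie in the lower tail and the other 4 pairs in the upper tail.

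Partners were also ranked from each side. Among 21758 lncRNA transcripts that averaged 0.1 FPKM or more, the partner ranked 2 by r for Arrdc3, 3 for Keg1, 42 for Zkscan7 and 56 for Slc16a5. The 3 Gm10658 transcripts on the minus strand had r of -0.71, -0.61 and -0.46 with Ptpn9. Seen from the lncRNA, among 8603 coding genes averaging 1 FPKM or more, Arrdc3 ranked 6 for 1700023H06Rik, Keg1 9 for Gm15962, Zkscan7 17 for A530083I20Rik and Slc16a5 177 for Gm11695, while Ptpn9 ranked 8450 for Gm10658. In the 4 positively related pairs, at least 1 other gene of each table thus followed the member more closely than its partner did.

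The genes most like each coding member over the 9 libraries were found by the same r. For Arrdc3 they were Agfg2 (r = 0.97), 1700023H06Rik itself and Sft2d1 (0.96). For Keg1 they were Ints1 (0.96), Gm26526 (0.95) and Cacybp (0.95), and for Zkscan7 they were Sdr42e1 (0.96), Pigp (0.95) and Slc6a20b (0.95). For Slc16a5 they were Cyp3a11 (0.96), a cytochrome P450 of drug metabolism, with Ptprm (0.95) and Cyp26b1 (0.95), the latter a retinoic acid hydroxylase. For Ptpn9 they were Por (0.95), the reductase that passes electrons to the cytochromes P450, with Pigf (0.94) and Wdr75 (0.94). Between coding members the r ran from -0.88 (Arrdc3 and Ptpn9) to 0.84 (Keg1 and Arrdc3) over all 10 combinations. Zkscan7 had an r of 0.59 for Keg1, 0.43 for Arrdc3, -0.51 for Slc16a5 and -0.30 for Ptpn9.

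The ratio of lncRNA to coding gene level, both per length in FPKM, had a median between 0.0507 and 1.81 in the 5 pairs. Both tables gave the single 1700023H06Rik transcript the same values to 2 decimals. The ratio ran from 0.48 to 1.12 (median 0.70) for 1700023H06Rik to Arrdc3, from 0.43 to 1.04 (median 0.66) for Gm15962 to Keg1, and from 0.33 to 1.16 (median 0.51) for A530083I20Rik to Zkscan7. Gm11695 reached 0.193 of the Slc16a5 level at most, with 0 in 2 PF libraries. Gm10658 went from 4.94 times the Ptpn9 level in the first PF library to 0.442 times in the first AF library, with a group mean ratio of 4.04 in PF and 1.76 in AF+MNA. The AF libraries had ratios of 0.442, 0.639 and 4.59, so the third AF library lay in the PF range and the others below every AF+MNA library. With known transcripts only, the third AF library had a ratio of 2.58, just below the lowest PF library at 2.60. The median ratio of all 885 pairs was 0.326. In the 23 pairs whose coding gene had at least 100 FPKM the ratio was 0.000487 at the lowest, 0.0176 at the median and 1.31 at the highest. What part of the member lncRNA levels comes from reads of the coding strand was not tested.

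The effect of alcohol was tested with limma on log2(FPKM + 1) across 12273 genes and 18310 lncRNA transcripts, and calls asked for an unadjusted p below 0.05 together with a log2 FC, the log2 ratio of both group means, above 1 or below -1. Of the 5 coding genes, 4 were called in AF against PF, with 1 upregulated and 3 downregulated, where 4.29% of all genes tested were called, 1.95% upregulated and 2.35% downregulated. Of the 10 lncRNA transcripts 8 passed the filter of 0.1 FPKM, and 5 of these were called, 1 upregulated and 4 downregulated, where 2.47% of all transcripts tested were called, 1.41% upregulated and 1.06% downregulated. The upregulated transcript, that of Gm11695, averaged 0.0396 FPKM in PF and passed the filter only through AF. Its call thus draws on the group where it is high and is no separate evidence. MSTRG.44624.1, at 0 in PF, also passed only through AF and was not called. With the Benjamini-Hochberg adjusted p of limma under 0.05 as the rule, 0 of the members were called (background 0.326% of genes and 0.0164% of transcripts). All 5 coding genes and 5 of the 8 transcripts had an unadjusted p under 0.05 (background 11.7% and 2.62%), and the adjusted p lay between 0.106 and 0.392 for the coding genes and between 0.598 and 0.703 for the transcripts. With 3 libraries against 3, an exact permutation test of 1 gene cannot go below p = 0.1. The pairs were picked for the relation of both partners over these same libraries, an inverse one for Gm10658 and Ptpn9. Member counts set against a background thus draw on values used for the selection. The calls of both partners of a pair do not count as separate evidence.

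Keg1 fell 3.40-fold, from 4.47 ± 1.12 to 1.32 ± 0.415 FPKM (mean ± SD, n = 3), with log2 FC -1.76 and a limma adjusted p = 0.106. Gm15962 fell 3.63-fold, from 3.18 ± 0.247 to 0.877 ± 0.593 FPKM (limma adjusted p = 0.598). The coefficients on the log2(FPKM + 1) scale were close, at -1.24 ± 0.21 (SE) for Keg1 and -1.20 ± 0.29 for Gm15962. Both calls held with any single library left out.

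Arrdc3 fell 3.08-fold, from 14.86 ± 3.37 to 4.83 ± 4.03 FPKM (log2 FC -1.62, limma adjusted p = 0.295). 1700023H06Rik fell 3.72-fold, from 11.5 ± 2.22 to 3.08 ± 2.90 FPKM (log2 FC -1.90, limma adjusted p = 0.598). The third AF library set much of the spread. Without it the log2 FC was -2.53 for Arrdc3 and -3.02 for 1700023H06Rik, and without the second AF library it was -1.21 and -1.50.

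Slc16a5 rose 4.43-fold, from 1.80 ± 1.04 to 7.96 ± 2.51 FPKM (log2 FC 2.15, limma adjusted p = 0.124). Gm11695 rose from 0.0396 ± 0.0686 to 1.05 ± 0.657 FPKM, with a coefficient of 0.92 ± 0.38 (SE) on the log2(FPKM + 1) scale and limma adjusted p = 0.598. It passed the filter of 0.1 FPKM only through AF, the group where it is high. The Gm11695 call was lost when any single library other than the third AF library was left out, in the fit with the replicate number as a block, under the stricter filter of 0.5 FPKM, and with the coefficient in place of the log2 FC. Its gene entry in the gene table was called as well (log2 FC 2.07, limma adjusted p = 0.327). In the third AF library that entry was at its highest (2.26 FPKM) and the transcript at the lowest of the group (0.292 FPKM). The entry is thus no separate support for the transcript.

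Zkscan7 fell 3.27-fold, from 4.41 ± 3.38 to 1.35 ± 0.349 FPKM (log2 FC -1.71, limma adjusted p = 0.392), and its second PF library carried much of this. Without that library the log2 FC was -0.87 and the call was lost, as it was without any 1 of the AF libraries. A530083I20Rik fell 4.67-fold, from 2.66 ± 1.20 to 0.570 ± 0.206 FPKM (log2 FC -2.22, limma adjusted p = 0.598), and this call held with any single library left out.

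Ptpn9 was at 2.73 ± 0.765 FPKM in PF and 4.99 ± 1.63 in AF, and its log2 FC of 0.87 missed the fold threshold (limma adjusted p = 0.390). It was called without the second PF library (1.12) or without the third AF library (1.11). The main Gm10658 transcript fell 2.17-fold, from 5.79 ± 0.814 to 2.67 ± 1.23 FPKM (log2 FC -1.12, limma adjusted p = 0.598). Without the first or second AF library its log2 FC was -0.96 or -0.91 and the call was lost. The other tested Gm10658 transcripts were not called, with log2 FC of -0.69 for ENSMUST00000128125 and -0.23 for MSTRG.44625.1. MSTRG.44624.1, listed at 0 in PF, had a mean of 0.576 FPKM in AF and a coefficient of 0.48. The Gm10658 gene entry in the gene table was not called either (log2 FC -0.96, limma adjusted p = 0.479), and its groups overlapped. Libraries of AF and PF did not overlap for 4 of the 5 coding genes, all but Ptpn9 (background 18.3%), and for 5 of the 8 transcripts (background 6.23%).

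MNA given with alcohol was compared with alcohol alone across 12219 genes and 19752 transcripts. Here 0 of 5 coding genes were called by limma, with 0 at an unadjusted p under 0.05 (background 1.98% called and 5.21% under that p), and 0 of 8 transcripts, with 1 at an unadjusted p under 0.05 (background 1.75% called and 1.81% under that p). This comparison shares its AF libraries with the first one, so the values are only set side by side. The 1 transcript was the main Gm10658 transcript, at 4.71 ± 0.578 FPKM in AF+MNA against 2.67 ± 1.23 in AF (log2 FC 0.82, limma adjusted p = 0.591). Every AF+MNA library was above every AF library for it, and no such separation was seen for any coding member (background 4.84% of transcripts and 10.1% of genes). Ptpn9 was at 4.57 ± 0.400 FPKM in AF+MNA.

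Among the other members, the log2 FC of AF+MNA against AF was 1.00 for Keg1 (2.64 ± 1.76 FPKM in AF+MNA, limma adjusted p = 0.966) and 0.90 for Gm15962 (limma adjusted p = 0.591). It was 0.28 for Arrdc3 and 0.39 for 1700023H06Rik, 0.42 for Zkscan7 and 0.72 for A530083I20Rik, and 0.22 for Slc16a5 and -1.03 for Gm11695. The sign for Arrdc3, 1700023H06Rik, Zkscan7 and Ptpn9 turned when 1 library was left out. Without the first AF+MNA library Keg1 was called (log2 FC 1.40). Without the third AF library 3 transcripts were called (background 2.11%), 1700023H06Rik (1.52), the main Gm10658 transcript (1.27) and ENSMUST00000128125 of Gm10658. The last was at 0 in the AF libraries left, so its log2 FC was not finite.

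**Figure D5:**
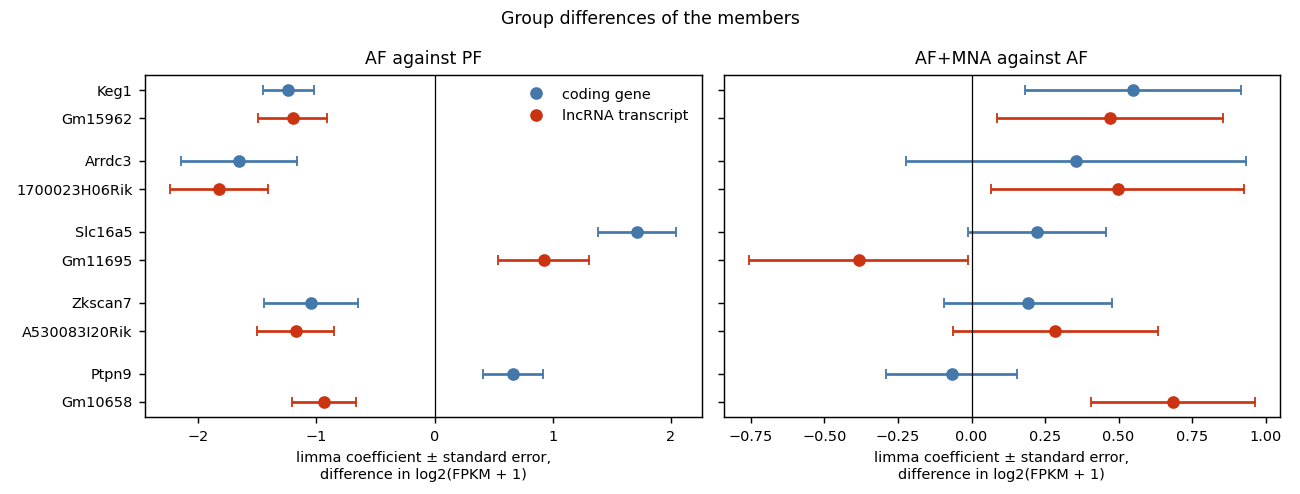
Limma coefficient with its standard error, as the difference in log2(FPKM + 1) on the horizontal axis, for AF against PF (left) and AF+MNA against AF (right), 3 libraries in each group, with coding genes in blue and the main transcript of each lncRNA in red. In the left panel partners lie on the same side of 0 except Ptpn9 and Gm10658, and in the right panel most error bars are long relative to the coefficient.

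Relatives of the coding members were tested in the same fits, which called 4.29% of all genes in AF against PF and 1.98% in AF+MNA against AF. Of the other alpha-arrestins 4 were tested, of the glycine N-acyltransferase family 2, and of the KRAB and SCAN zinc finger genes 14, and 0 of these were called by limma in either comparison. Of the other cytoplasmic tyrosine phosphatases 0 of 9 were called in AF against PF and 0 of 10 in AF+MNA against AF. In the monocarboxylate transporter family 1 of 8 was called in AF+MNA against AF, Slc16a4, at 0.923 ± 0.379 FPKM in AF and 0.423 ± 0.0814 in AF+MNA (log2 FC -1.13, limma adjusted p = 0.940).

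The circular RNA table, which counts reads across back-splice junctions, had entries inside only 1 coding member, Ptpn9. A circle of 6 exons (chr9:57019904-57036811) had 2 reads in the first AF and 2 in the first AF+MNA library, and a circle of 2 exons (chr9:57056714-57057861) had 2 reads in the first AF+MNA library. The second circle covers the Ptpn9 exons that Gm10658 is complementary to. Both were at 0 in the PF libraries, where 1840 to 1955 junction reads were counted in each library, and no test was made on so few reads.

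The 9 libraries were alike in their hepatocyte markers, with all 6 (Alb, Apoa1, Ttr, Tat, Cps1 and Serpina1a) detected and sums of 14890 to 21839 FPKM. All 6 sinusoidal endothelial markers were detected, and their sum was 24.8 to 30.0 FPKM in PF, 28.9 to 40.9 in AF and 35.7 to 43.3 in AF+MNA. Of 6 cholangiocyte markers 2 had a mean of at least 0.5 FPKM, Krt7 and Cftr were under 0.1 FPKM, and the sum was 3.29 to 4.36 FPKM in PF, 4.87 to 9.13 in AF and 3.34 to 6.38 in AF+MNA. The sum of the 4 kidney tubule markers present was 0.08 to 0.28 FPKM in PF, 0 to 0.02 in AF and 0.01 to 0.11 in AF+MNA. The part of these cells in the member levels was not tested, and in whole liver fewer cells of a type and less RNA per cell cannot be told apart. The third AF and the first AF+MNA library stood apart in the summed level of intronic assembled transcripts, at 9433 and 8934 FPKM against 2477 to 4937 in the others. Their part in the levels of Gm10658, which has transcripts of this kind, was not tested beyond leaving them out. Its r with Ptpn9 was -0.71 without the third AF library and -0.69 with known transcripts only.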

How the data were processed

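Per the labels and the study's methods, liver RNA was depleted of ribosomal RNA and made into dUTP strand-specific paired-end libraries. The submitters' processing notes name cutadapt 1.9, HISAT2, StringTie 1.3.4, TopHat, edgeR and FastQC. The genome build was not given in the sources used here, but member transcripts have the ends of GENCODE M21 on GRCm38. The authors deposited FPKM values per gene and per lncRNA transcript, beside coverage signal columns, coding potential scores and circular RNA junction read counts. No counts per gene were used, so depth is known only through these columns. The members and lists were chosen with earlier results of these data known.

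lncRNA levels were the transcript FPKM, and coding levels the gene FPKM of the entry with known transcripts. Differences were fitted with limma 3.58.1 in R 4.3.3 (eBayes with intensity trend) on log2(FPKM + 1), which understates changes of low genes, over all genes averaging 0.5 FPKM or more, and all lncRNA transcripts averaging 0.1 FPKM or more, in the 6 libraries compared, and p-values were adjusted by Benjamini-Hochberg over each table. Features at 0 in 1 group counted as past the fold threshold. A call needed p under 0.05 and log2 FC above 1 or below -1. Nothing says which libraries came from separate litters or days, so p-values measure the spread between these libraries. The fit was tested on simulated data with 200 changed features, drawn from features averaging at least 1 FPKM in PF, so this does not cover lower levels. Named genes were the members, called relatives (at most 4 per family), the 3 genes most like each coding member (mean of at least 1 FPKM) and the 5 pairs with the highest r. The monocarboxylate transporter family is not reported here for AF against PF. Opposite-strand pairs overlapped or started head to head within 1000 bases. Alternatives were the pseudocount, filters, scaling, prior, samples, replicate block, fold, call rule and each library left out, and 1 more, known lncRNA transcripts only, was added after seeing the data. Scaling factors for both tables came from the medians of tested genes, since the median lncRNA transcript was at 0 in some libraries.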

Additional observations from a re-analysis of the deposited data

Results flagged for a closer look

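The lncRNA table lists an assembled transcript, MSTRG.44623.1, on the minus strand at chr9:57062792-57063295 (504 bases, 1 exon), across the last bases of Ptpn9 and inside the intron of Gm10658. The table files it under the gene name Ptpn9, although it lies on the other strand, and it entered no comparison of a pair. It was listed at 0 in all 3 PF libraries, at 3.11, 3.14 and 5.97 FPKM in AF (mean 4.07), and at 3.85, 0 and 0 FPKM in AF+MNA. It drew notice as a signal outside the main measurement that stood above the control libraries. It was picked for standing above the control libraries and passed the filter only through AF, so its calls by the rule of unadjusted p and log2 FC in AF against PF (limma adjusted p = 0.110) and in AF+MNA against AF (log2 FC -1.66, limma adjusted p = 0.591) draw on the values that selected it and are no separate evidence. The AF+MNA and AF libraries overlapped. Its highest AF value and its single value above 0 in AF+MNA fell in the third AF and the first AF+MNA library, which had the high summed level of intronic transcripts (9433 and 8934 FPKM), and the part of this was not tested. A value of 0 is given here as listed.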

How the results depend on the processing

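In AF against PF, leaving out 1 library gave 3 to 4 called coding genes and 3 to 7 called lncRNA transcripts (3 without the first or second AF library, 7 without the third). The background in these fits was 4.21% to 6.27% of genes and 2.02% to 3.63% of transcripts, highest without the third AF library. The adjusted p as the rule gave 0 coding genes and 0 transcripts, and the limma coefficient in place of the log2 FC gave 3 transcripts. In AF+MNA against AF, leaving out 1 library gave 0 to 1 coding genes and 0 to 3 transcripts (background 1.72% to 3.03% and 1.35% to 2.23%). The log2 FC of these members turned sign in such fits. Ranges cover the fits with a finite log2 FC. ENSMUST00000128125 had none without the third AF library, since it was at 0 in the other AF libraries. In AF against PF MSTRG.44625.1 ran from -1.23 to 0.19 (without the first AF library). In AF+MNA against AF the range was -0.13 (without the second AF library) to 1.19 for Arrdc3, which was also -0.017 without the second AF+MNA library, -0.36 to 0.093 (without the first AF) for Ptpn9, -0.23 (without the third AF+MNA) to 0.70 for Zkscan7, -0.17 (without the first or second AF) to 0.46 for ENSMUST00000128125 of Gm10658, -0.0066 (without the second AF) to 1.52 for 1700023H06Rik, and -1.44 to 0.35 (without the third AF) for MSTRG.44625.1.

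With the replicate number as a block, 4 coding genes and 4 lncRNA transcripts were called in AF against PF (background 4.58% and 2.39%). In AF+MNA against AF they were 0 and 0 (background 2.13% and 1.60%). Over all genes the numbers showed no pairing: deviations of same-numbered libraries correlated at -0.043, 0.031 and 0.024 in AF against PF and at 0.062, 0.032 and -0.0039 in AF+MNA against AF. Differently numbered libraries had -0.079 to 0.062 and -0.12 to 0.097 in the same order. A pairing that touches few genes cannot be seen this way.

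The r of a pair kept its sign throughout. With 1 library left out it was 0.905 to 0.961 for Gm15962 and Keg1, 0.948 to 0.985 for 1700023H06Rik and Arrdc3, 0.727 to 0.837 for Gm11695 and Slc16a5, 0.813 to 0.983 for A530083I20Rik and Zkscan7, and -0.833 to -0.566 for Gm10658 and Ptpn9. Gm15962 and Keg1 had 0.883 by Spearman and 0.805 for deviations from group means, 1700023H06Rik and Arrdc3 0.931 for deviations, and Gm11695 and Slc16a5 0.886 with a pseudocount of 0.1 and 0.557 for deviations. The median r of all pairs was 0.211 to 0.307 with 1 library left out, 0.177 for head to head pairs, and 0.193 or 0.408 at a minimum of 0.1 or 2 FPKM. The cause of these shifts was not tested. Precision is limited by 3 libraries a group.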
